A study of Homo sapiens with 4 samples.

Results

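This section follows 5 genes, PARP9, PARP10, PARP12, PARP14 and DTX3L, across 4 arrays of human lung adenocarcinoma cells. Their signals were taken from every probe set (a group of short oligonucleotides on the array that reads 1 transcript or a few) whose only gene name in the platform annotation was 1 of these symbols. That gave 10 probe sets of 54675, for 5 genes of 19740. PARP10 had 4 probe sets, PARP9 and PARP14 had 2 each, and PARP12 and DTX3L had 1 each.

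CL1-0 and CL1-5 are related lung adenocarcinoma lines, of which CL1-5 is the more invasive. The 4 groups were CL1-0 with a control vector, CL1-0 with a PSAT1 vector, CL1-5 with a non-silencing shRNA vector and CL1-5 with a PSAT1 shRNA vector, and each had 1 array. The labels describe stable transduction and 2 weeks of puromycin selection for all 4, so the controls carried a vector and went through the drug too. PSAT1 is an aminotransferase of serine synthesis, and the comparisons ask how expression differs when it is added to one line or lowered in the other. With 1 array per group there is no spread between replicates, no test was possible, and no p-value is given. A difference of 2-fold or more between a pair of arrays is called a rise or a fall, which is a rule of size only.

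PARP proteins use NAD to place ADP-ribose on proteins or nucleic acids. The members studied here are known as genes that interferons induce. Most of them attach single ADP-ribose units rather than chains. DTX3L is a ubiquitin ligase of the deltex family that binds PARP9, and the pair acts in DNA damage repair and in interferon signalling. PARP9 and PARP14 carry macrodomains, folds that bind ADP-ribose. PARP12 has zinc fingers that bind RNA, and it is found at the Golgi and in stress granules. PARP10 is a mono-ADP-ribosyltransferase that also contains ubiquitin-interacting motifs.

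In the RefSeq gene table for GRCh38.p14, 3 of the members lie near each other on chromosome 3, at chr3:122527924-122564784 for PARP9, chr3:122564338-122575203 for DTX3L and chr3:122680839-122730840 for PARP14. PARP12 lies at chr7:140023749-140062951. PARP9 and DTX3L lie on opposite strands, and their annotated spans overlap at the 5′ ends. One annotated PARP9 start, on the minus strand, lies 38 bases from the DTX3L start on the plus strand. From these starts the genes are transcribed away from each other. Another PARP9 start lies 446 bases from the DTX3L start, inside the DTX3L span. The sequences around the starts are shown because they show what the members share beside their expression. Promoter windows from RefSeq (250 bases before to 50 after each start, 300 bases in all) were found for 4 of the 5 members. Each line below runs 5′ to 3′ along the gene's own strand, from 100 bases before the start to 20 bases after it. Capitals mark a match to GAAANNGAA, which holds most of the repeated core of the interferon-stimulated response element, on either strand.

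DTX3L, chr3:122564238-122564357, plus strand: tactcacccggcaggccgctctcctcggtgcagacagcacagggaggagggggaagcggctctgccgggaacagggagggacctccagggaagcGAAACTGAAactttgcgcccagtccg
PARP9, chr3:122564281-122564400, minus strand: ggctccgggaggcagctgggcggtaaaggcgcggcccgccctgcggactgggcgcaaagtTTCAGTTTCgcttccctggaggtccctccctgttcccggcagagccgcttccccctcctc
PARP14, chr3:122680739-122680858, plus strand: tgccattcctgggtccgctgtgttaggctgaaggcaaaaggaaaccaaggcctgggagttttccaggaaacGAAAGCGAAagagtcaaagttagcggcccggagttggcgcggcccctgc
PARP12, chr7:140062932-140063051, minus strand: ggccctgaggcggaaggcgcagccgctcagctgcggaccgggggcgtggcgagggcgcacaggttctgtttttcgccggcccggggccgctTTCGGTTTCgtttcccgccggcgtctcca

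The capitals of the DTX3L and PARP9 lines are the same bases, chr3:122564332-122564340, read from opposite strands. They run from position -6 to 3 of the DTX3L start and from -40 to -32 of the nearer PARP9 start. The match of PARP14 ran from -29 to -21 and that of PARP12 from -9 to -1. All 4 members with a window held a match in at least 1 window, from 3 distinct places in the genome. The other PARP9 window, at the start farther from that of DTX3L, held none. Of 35116 promoter windows of the same length, 8.11% held GAAANNGAA on either strand. By gene, 9.86% of 27305 genes held a match in any of their windows, as did 16 of 23 type I interferon effector genes, 0 of 11 other PARP family genes and 0 of 2 other deltex genes. The core of the gamma-activated site, TTCNNNGAA, reads alike on both strands and was in 7.66% of all windows. Of the 4 members it was found in 1, PARP14, as TTCCAGGAA from -40 to -32. By gene, it was in 9.38% of all genes and in 3 of 11 other PARP family genes. It was also in 1 of 2 other deltex genes and 5 of 23 effectors. The matches describe letters only.

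The arrays differed in ways that touch the members. Median signals were 53.2 in CL1-0 (either array), 45.4 for the CL1-5 control and 46.0 for the hairpin, and 48.0% to 52.0% of probe sets lay above the floor. The floor, a signal of 49.0, is the pooled median of the 4 arrays and takes the place of detection calls. The 3′ to 5′ ratio of the ACTB controls, a sign of RNA quality, ran from 1.18 to 1.22 in CL1-0 and from 1.34 to 1.38 in CL1-5. PSAT1 read 1760 with the non-silencing control and 143 with the hairpin in CL1-5, but 4214 with vector and 5494 with the PSAT1 vector in CL1-0 (the brighter of its 2 probe sets), so the second construct was not seen as a large gain. Of the alveolar type II markers, the cell type given in the labels, 6 of 8 were above the floor on every array, none brighter than 268, while SFTPD and SLC34A2 were below it on all. The epithelial markers EPCAM, CDH1 and KRT19 were below the floor on all 4 arrays. So were the immune markers PTPRC, CD3E, CD14 and LYZ. The other epithelial markers, KRT8 (60.4 to 1675) and KRT18 (635 to 5657), were above the floor on all 4 arrays. Between the control arrays KRT8 was 16.3-fold and KRT18 7.01-fold higher in CL1-5. Summed signal of the 7 immune and endothelial markers was 165 to 193 in CL1-0 and 255 to 300.1 in CL1-5. PECAM1 was above the floor on all 4 arrays and VWF on the CL1-5 arrays, and the others were below it. Summed fibroblast markers were 768 with vector and 423 with PSAT1 in CL1-0, with COL3A1 above the floor only in the former, and 494 and 500.1 in CL1-5. The part of these values in the results was not tested.

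**Figure D1:**
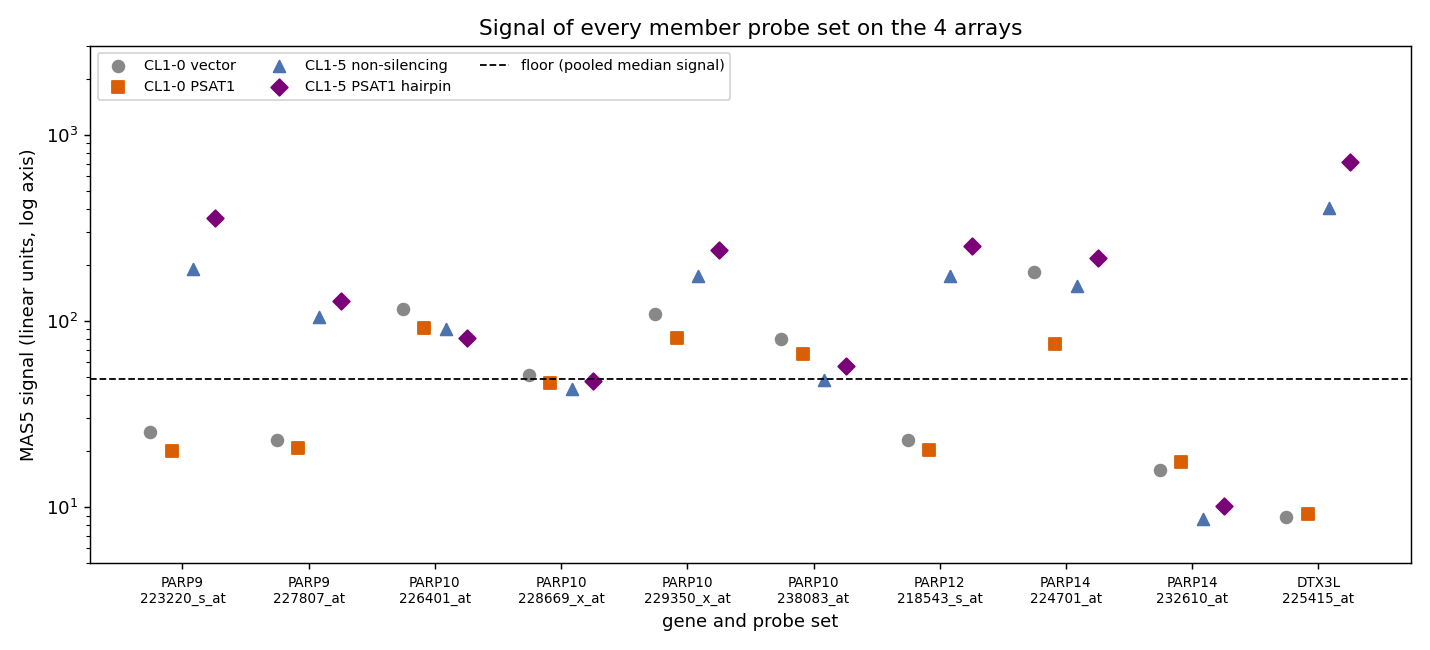
MAS5 signal (log axis) of the 10 member probe sets on each of the 4 arrays, 1 point per array, with the floor of 49.0 as a dashed line. PARP9, PARP12 and DTX3L lie below the floor on both CL1-0 arrays and above it on both CL1-5 arrays, while 1 PARP14 probe set and 2 of PARP10 are above it on all 4.

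The members fell into a pair of patterns. PARP9, PARP12 and DTX3L were read in CL1-5 and not above the floor in CL1-0, whereas PARP10 and PARP14 were read in both lines. In CL1-0 the PSAT1 array had less PARP14 signal than the vector array, 2.45-fold. In CL1-5, by the probe set of highest mean, all 5 genes had more signal on the hairpin array. The range was 1.39-fold for PARP10 to 1.87-fold for PARP9, and none reached 2-fold. Another PARP10 probe set, 226401_at, had less signal on the hairpin array, at a log2 ratio of -0.16.

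DTX3L, the ubiquitin ligase, was read by 1 probe set, whose order over the arrays was the CL1-5 hairpin, the CL1-5 control and then CL1-0. That probe set, 225415_at, read 8.89 with vector and 9.21 with PSAT1 in CL1-0, and 405 with the non-silencing control and 712 with the hairpin in CL1-5. Both CL1-0 values are far below the floor, so no fold is given for that pair. The log2 ratio in CL1-5 was 0.81, or 1.76-fold.

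PARP9, the binding partner of DTX3L, followed the same order. Its brighter probe set, 223220_s_at, read 25.4 with vector and 20.1 with PSAT1 in CL1-0, and 190.2 and 356 with control and hairpin in CL1-5. The dimmer one, 227807_at, read 23.0 and 20.7 in CL1-0, and 105 and 127 in CL1-5. Both placed CL1-0 below the floor and the hairpin array above its control, but by different amounts. The log2 ratios in CL1-5 were 0.90 (1.87-fold) and 0.28 (1.22-fold).

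PARP14, the macrodomain protein encoded beyond PARP15 on the same chromosome arm, was above the floor in both lines. Its probe set 224701_at read 184 with vector and 75.1 with PSAT1 in CL1-0, and 154 with control and 218 with hairpin in CL1-5. The PSAT1 array of CL1-0 was the low one of the 4. The log2 ratio was -1.29 in CL1-0, a 2.45-fold fall, and 0.50 in CL1-5, or 1.41-fold. The second probe set, 232610_at, was below the floor on every array, between 8.68 and 17.4, so each PARP14 ratio rests on 1 probe set. The fall was under 2-fold with the floor at the 65th percentile (-0.86, as a bound) and with the mean over both probe sets (-0.65). In that mean 232610_at is set to the floor on every array and can add no difference, so the ratio is smaller by construction.

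PARP12, the zinc finger member, had the order of PARP9 over the arrays. Its single probe set, 218543_s_at, read 22.9 with vector and 20.2 with PSAT1 in CL1-0, then 173 with control and 252 with hairpin in CL1-5. Only the CL1-5 values were above the floor. The log2 ratio there was 0.54, or 1.45-fold.

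PARP10, on chromosome 8, was the member whose probe sets disagreed. The probe set with the highest mean, 229350_x_at, read 109 and 80.9 in CL1-0 (vector, then PSAT1) and 174 and 242 in CL1-5 (control, then hairpin). By contrast, 226401_at read 117 and 92.1 in CL1-0 and 90.4 and 80.7 in CL1-5. The probe set 238083_at read 80.4 and 66.7 in CL1-0, and 48.1 and 57.5 in CL1-5, where the control was below the floor. The last, 228669_x_at, ran from 43.0 to 51.0 on the 4 arrays, at the floor. In CL1-0 all 4 ratios were below 0, from -0.42 to -0.06 (a bound). In CL1-5 the 3 that could be read were 0.47, 0.23 (a bound) and -0.16, so the direction of PARP10 there depends on the probe set. The suffixes _x_at and _s_at mark probe sets that can match more than 1 transcript, and without them PARP10 had -0.16 and PARP9 0.28 in CL1-5.

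**Figure D2:**
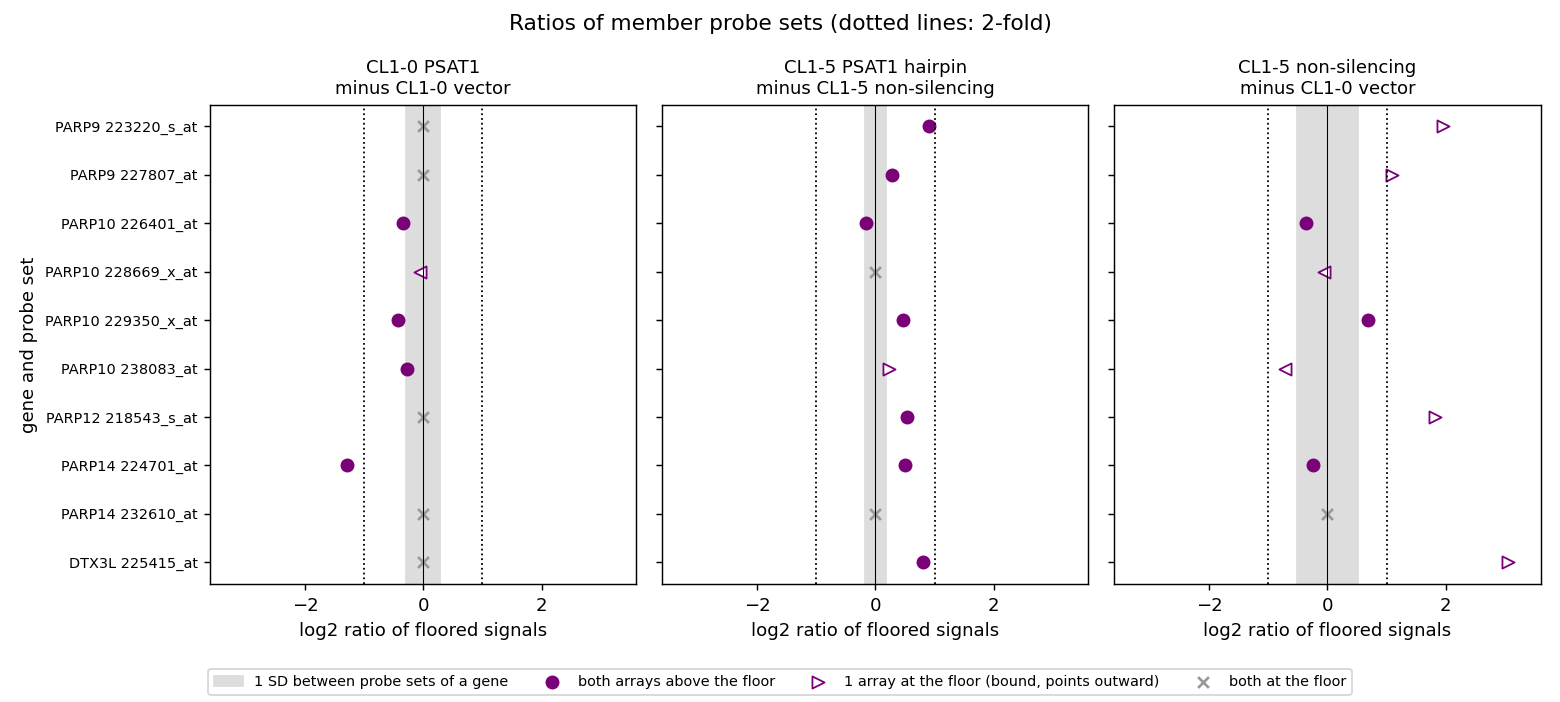
Log2 ratios (horizontal axis) of the 10 member probe sets in the 3 comparisons, with floored signals, a grey band of 1 SD among probe sets of a gene and dotted lines at 2-fold. PARP14 224701_at at -1.29 is past 2-fold in CL1-0, the CL1-5 manipulation holds no probe set past 2-fold, and open triangles in the right panel mark ratios that are bounds.

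The comparison of CL1-0 with PSAT1 against CL1-0 with vector had 2 measured members, meaning at least 1 array above the floor. PARP14 fell and PARP10 (-0.42, 1.34-fold) was under 2-fold, so 1 of 2 was lower and 0 of 2 were higher. Over the 13187 genes measured in this pair, 1.01% were 2-fold or more lower and 2.56% higher, and the median log2 ratio was -0.01. PARP14 had the 75th lowest ratio of the 13187 genes and PARP10 the 1164th lowest. Probe sets of a single gene differed in log2 ratio with an SD of 0.289 in this pair, against which PARP14 lay at 4.47 times and PARP10 at 1.47 times. That SD stands for probe disagreement and not for replicate error.

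The comparison of the PSAT1 hairpin with the non-silencing control in CL1-5 had all 5 members measured, with 0 at 2-fold in either direction and 5 of 5 ratios above 0. Over the 12821 genes measured in this pair, 0.398% were 2-fold or more higher and 0.421% lower, so a count of 0 among 5 members lies near that background, while 52.7% of all ratios were above 0. The members' median log2 ratio was 0.54 beside 0.02 over all genes. From the highest ratio downward, PARP9 was 66th of the 12821, DTX3L 84th, PARP12 264th, PARP14 313th and PARP10 361st. The SD between probe sets of a gene was 0.175, and the members lay from 2.69 (PARP10) to 5.16 (PARP9) times that value. PARP12, PARP14 and PARP10 differed from each other by less than that SD, and so did PARP9 and DTX3L. At a size of 1.5-fold, 2 of the 5 members, PARP9 and DTX3L, would count as higher, beside 1.67% of all genes. With quantile normalization PARP9 reached 2-fold, beside 0.524% of all genes.

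**Figure D3:**
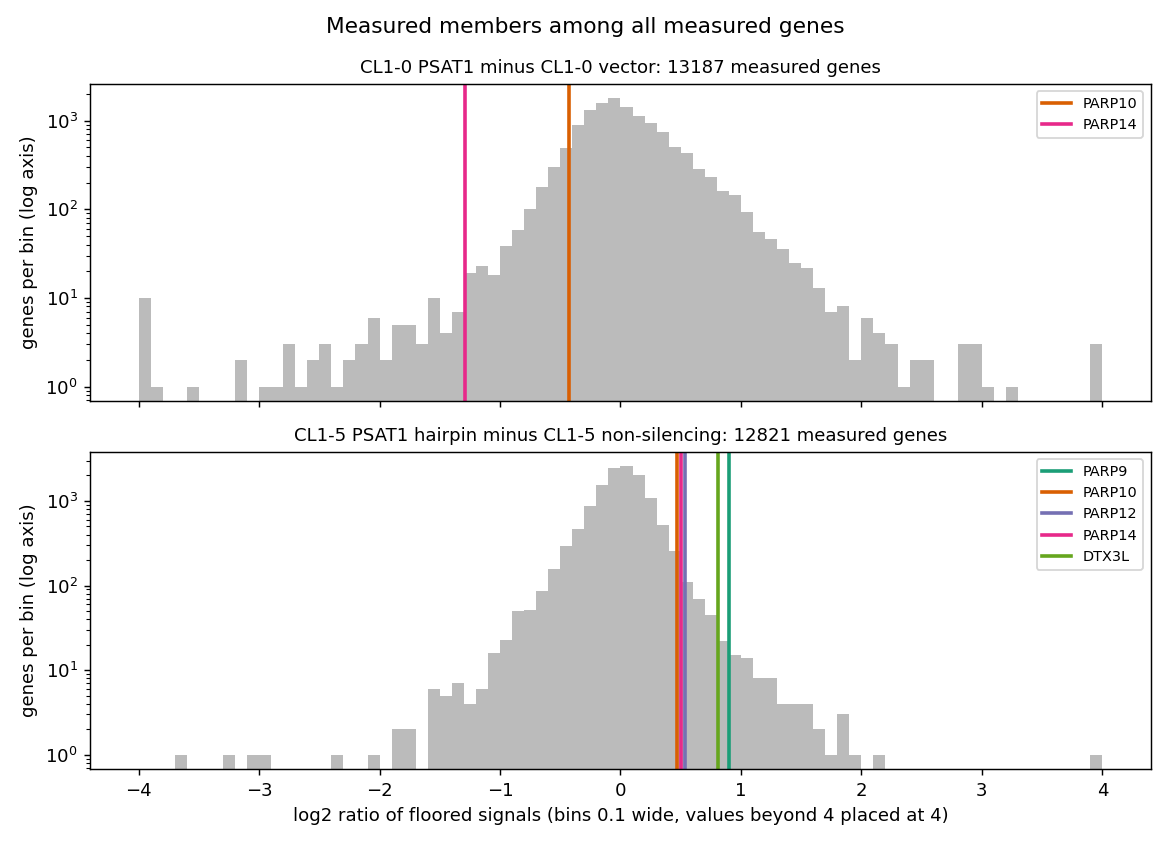
Number of genes (log axis) by log2 ratio for the CL1-0 pair (top) and the CL1-5 pair (bottom), with vertical lines at the measured members. Each gene is read from its probe set of highest mean. In the CL1-5 pair all 5 members lie to the right of 0, between 0.47 and 0.90. In the CL1-0 pair PARP14 lies at -1.29 and PARP10 at -0.42.

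The manipulations share no array. Of the 11941 genes measured in both, 30.9% had a ratio below 0 in CL1-0 with PSAT1 and above 0 in CL1-5 with the hairpin, and both PARP14 and PARP10 were among them. Only 0.0921% (11 genes) were past 2-fold in both, and neither member was. Of the type I interferon effectors, 8 were.

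The control arrays of the lines were then compared, CL1-5 non-silencing minus CL1-0 vector, which reuses 1 array of each manipulation. DTX3L was at least 8.27-fold higher in CL1-5, PARP9 at least 3.88-fold (at least 2.14-fold by its dimmer probe set) and PARP12 at least 3.54-fold. Each is a lower bound against the floor of 49.0. PARP10 (0.68, 1.61-fold) and PARP14 (-0.25, 1.19-fold) were under 2-fold. Thus 3 of 5 members were higher and 0 lower, where 5.25% of 13720 measured genes were higher and 24.8% lower. The median log2 ratio over all genes was -0.49 here, so that relative to it PARP10 lay 1.17 and PARP14 0.23 above, and, as bounds, DTX3L at least 3.53, PARP9 at least 2.44 and PARP12 at least 2.31. The sign of PARP14 turned with scaling, at 0.21 after quantile normalization and 0.36 after median centring. The PARP10 probe sets disagreed again, at 0.68, -0.06 (a bound), -0.37 and -0.72 (a bound). PARP10 passed 2-fold in neither direction as deposited. It had 1.10 and 1.30 under those scalings, where 4 of 5 members were higher, beside 9.53% and 10.3% of all genes. With the floor at the 65th percentile only DTX3L remained past 2-fold, since a higher floor lowers each bound.

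Other PARP family genes had ratios on both sides of 0 in CL1-5. Of 12 measured there, 0 reached 2-fold, 5 were above 0 and 7 below, with a median of -0.08. PARP1, the DNA damage sensor, read 1959 with the hairpin and 1850.2 with control. ZC3HAV1, the zinc finger antiviral protein, which belongs to the family but has no transferase activity, read 1015 and 1117. TNKS, a tankyrase that makes ADP-ribose chains, had the largest ratio, -0.73 (126 against 209). In CL1-0, again 0 of 12 reached 2-fold, the median was -0.05, and the ends of the range were PARP16, an endoplasmic reticulum member, at 0.99 (385 against 194) and ZC3HAV1 at -0.62 (1298 against 1991). Between the control arrays PARP11 was 4.54-fold and PARP1 2.43-fold lower in CL1-5, and none was higher. Over all genes measured there, 24.8% were lower and 5.25% higher. Under either scaling PARP1 was no longer past 2-fold (-0.60 and -0.67), and the list median went from -0.13 to 0.43 with quantile normalization and 0.46 with centring.

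Enzymes that remove or read ADP-ribose were 7 genes with a named probe set. In CL1-0, 1 of 7 rose, beside 2.56% of all measured genes. It was the hydrolase MACROD2, at least 5.94-fold (291 against 23.4). MACROD2 has 4 probe sets, and it was under 2-fold with their mean. It was also under 2-fold with the floor at the 25th percentile and with no floor, where another of its probe sets had the highest mean and was read instead. RNF146, a ubiquitin ligase that reads ADP-ribose chains, had 0.90, and the median was 0.56, beside -0.01 over all genes. In CL1-5, 0 of 6 measured genes reached 2-fold and the median was -0.18, with the hydrolase OARD1 at -0.30 and the phosphodiesterase NUDT16 at 0.39. Between the lines NUDT16 (3.45-fold) and the chain-cutting enzyme PARG (2.06-fold) were lower in CL1-5. That is 2 of 6 measured genes, beside 24.8% of all measured genes. PARG was under 2-fold with either scaling (-0.44 and -0.43), and the list median went from -0.78 to -0.07 and -0.17.

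The other deltex ligases held 1 rise among 4 measured genes in CL1-0, beside 2.56% of all measured genes. It was DTX4, with 424 on the PSAT1 array and 193 on the vector array, 2.20-fold, though under 2-fold after quantile normalization. DTX1, DTX2 and DTX3 had ratios of 0.38, -0.20 and -0.03. In CL1-5 none of the 4 reached 2-fold, and DTX4 had 0.59 (193 against 128). Unlike DTX3L, all 4 were above the floor on every CL1-0 array.

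Genes that make NAD, the substrate of the PARP enzymes, had no 2-fold change in CL1-0 (0 of 6, median -0.07) or in CL1-5 (0 of 5, median 0.11). NAMPT, the rate-limiting enzyme of NAD salvage, read 2145 with PSAT1 and 2513 with vector in CL1-0, and 1554 with hairpin and 1686 with control in CL1-5. Between the lines 3 of 6 were lower in CL1-5, beside 24.8% of all measured genes. QPRT was at least 11.4-fold, NAPRT 2.35-fold and NMNAT1 2.06-fold lower. With quantile normalization NAPRT had -0.94 and NMNAT1 -0.59, and with centring -0.62 and -0.43, so QPRT alone of the 3 stayed past 2-fold.

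Of 7 listed genes that carry the interferon signal from receptor to nucleus, 5 were analysed here, so the path is covered only in part. In neither manipulation did any of the 5 reach 2-fold. IRF9, the DNA-binding part of the factor ISGF3, read 272 with vector and 238 with PSAT1 in CL1-0, and 839 with control and 1209 with hairpin in CL1-5. Its CL1-5 ratio of 0.53 was close to the 0.54 of PARP12. Between the lines IRF9 was 3.08-fold higher in CL1-5 and the receptor chain IFNAR1 2.47-fold lower. Of all genes measured there, 5.25% were higher and 24.8% lower. IFNAR1 was under 2-fold with quantile normalization (-0.72) and with centring (-0.69), and the kinase JAK1, named after its values were seen, was then higher (1.41 and 1.32). IRF1, which also binds response elements of this kind, had -0.68 in CL1-0 (130 against 207) and 0.05 in CL1-5.

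The 28 type I interferon effectors on the array give the setting of the members. In CL1-0, 19 were measured and 14 fell with PSAT1, beside 1.01% of all genes measured in that pair. The median of the 19 was -2.51, beside the ratios of -1.29 and -0.42 for PARP14 and PARP10. IFIT1, an RNA-binding antiviral protein, read 8422 with vector, above the floor, whereas DTX3L, PARP9 and PARP12 were below the floor on that same array. In CL1-5, 25 were measured, 25 were above 0 and 14 rose, beside 52.7% and 0.398% of all genes measured there. The median was 1.20, beside 0.54 for the members. The lowest effector ratio there was 0.37, so the members' range of 0.47 to 0.90 lay within the lower part of the effectors' range. Both ranges use only the probe set of highest mean for each gene. Between the lines 4 of 24 measured effectors were higher in CL1-5 and 11 lower, beside 5.25% and 24.8% of all measured genes. The members counted 3 and 0. The 4 higher ones were OAS3 (9.78-fold), an enzyme that makes the activator of RNase L, the GTPase MX1 (at least 6.63-fold), IFIT5 (3.06-fold) and OAS1 (at least 2.97-fold). Both scalings raised the count of higher effectors to 8, beside 9.53% (quantile normalization) and 10.3% (centring) of all measured genes. With quantile normalization 10 effectors were lower, beside 8.93% of all measured genes. The effector median went from -0.59 to 0.07 with it. MX1, OAS1 and IFIT5 were named after their values were seen.

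**Figure D4:**
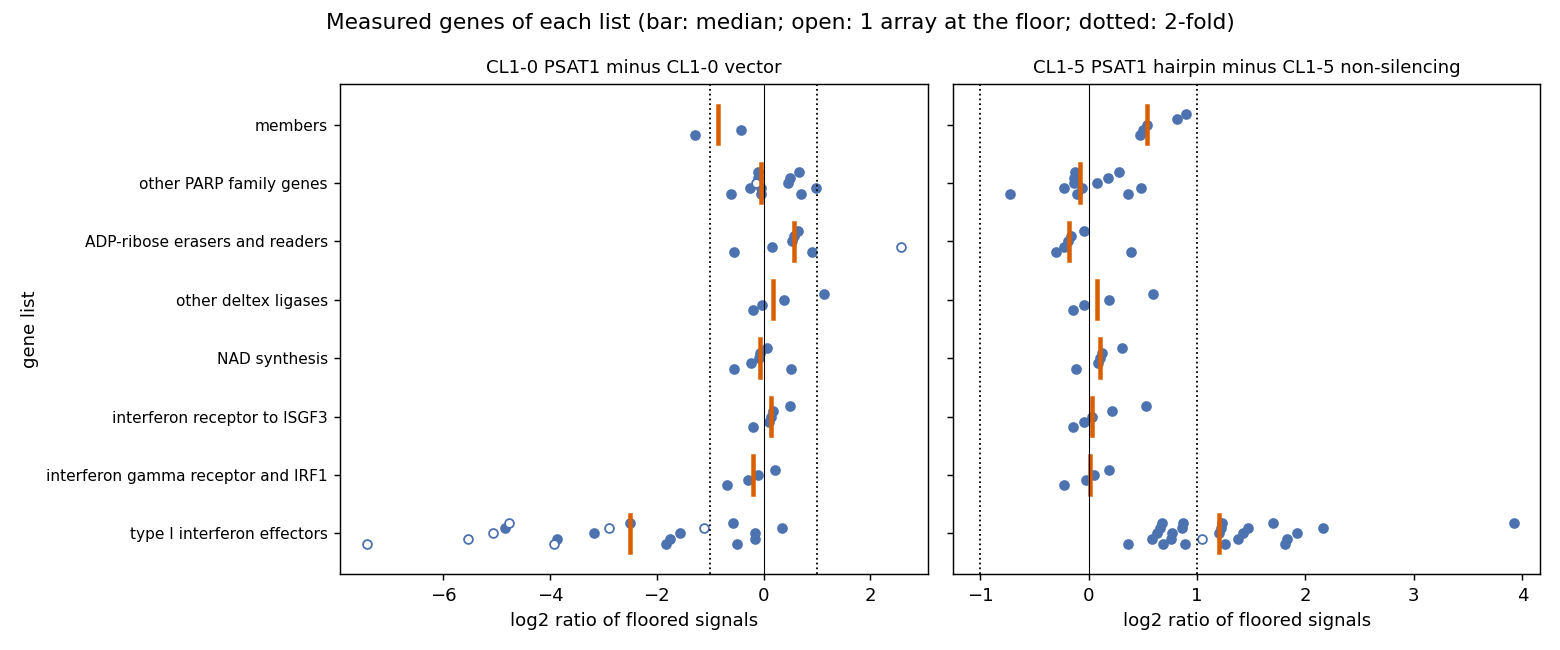
Log2 ratios of the measured genes of each list in the CL1-0 pair (left) and the CL1-5 pair (right), 1 point per gene, with an orange bar at the list median. Each gene is read from its probe set of highest mean. In CL1-5 the members (median 0.54) and the type I interferon effectors (median 1.20) lie above 0 when read so. The other PARP family genes (median -0.08) lie on both sides.

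The genes beside the members were read in the same way. On chromosome 3, KPNA1, an importin on one side of PARP9, read 1221 and 1006 in CL1-0 (vector, then PSAT1) and 347 and 309 in CL1-5 (control, then hairpin). PARP15, between DTX3L and PARP14, was below the floor on all arrays, between 7.60 and 8.16. HSPBAP1, beyond PARP14, read 282 and 437 in CL1-0 and 112 and 125 in CL1-5. In CL1-5 the ratios of the 4 measured neighbours, WDR5B, KPNA1, HSPBAP1 and SLC49A4, were 0.30, -0.17, 0.16 and 0.11, below those of PARP9 (0.90), DTX3L (0.81) and PARP14 (0.50). Between the lines the same neighbours were at -1.10, -1.82, -1.34 and -0.56, the opposite sign from PARP9 and DTX3L. SLC49A4 turned to 0.14 with quantile normalization and 0.05 with centring. Over all genes measured between the lines, only 23.2% of ratios were above 0 and the median was -0.49, so most genes had the sign of these neighbours. Beside PARP12 on chromosome 7, HIPK2 and KDM7A had -0.71 and -0.69 in CL1-5, and TBXAS1 and SLC37A3 had 0.24 and -0.13. Between the lines HIPK2 (1.80) and TBXAS1 (0.91) had the sign of PARP12 (at least 1.82), and KDM7A (-0.96) and SLC37A3 (-2.28) the opposite sign. Beside PARP10, PLEC, SPATC1 and OPLAH had 0.02, 0.28 and -0.24, and EPPK1 was below the floor on both CL1-5 arrays. Between the lines PLEC had 0.61 beside 0.68 for PARP10, whereas SPATC1 had -0.43 (0.18 with centring), OPLAH -2.06 and EPPK1 a bound of -1.22.

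**Figure D5:**
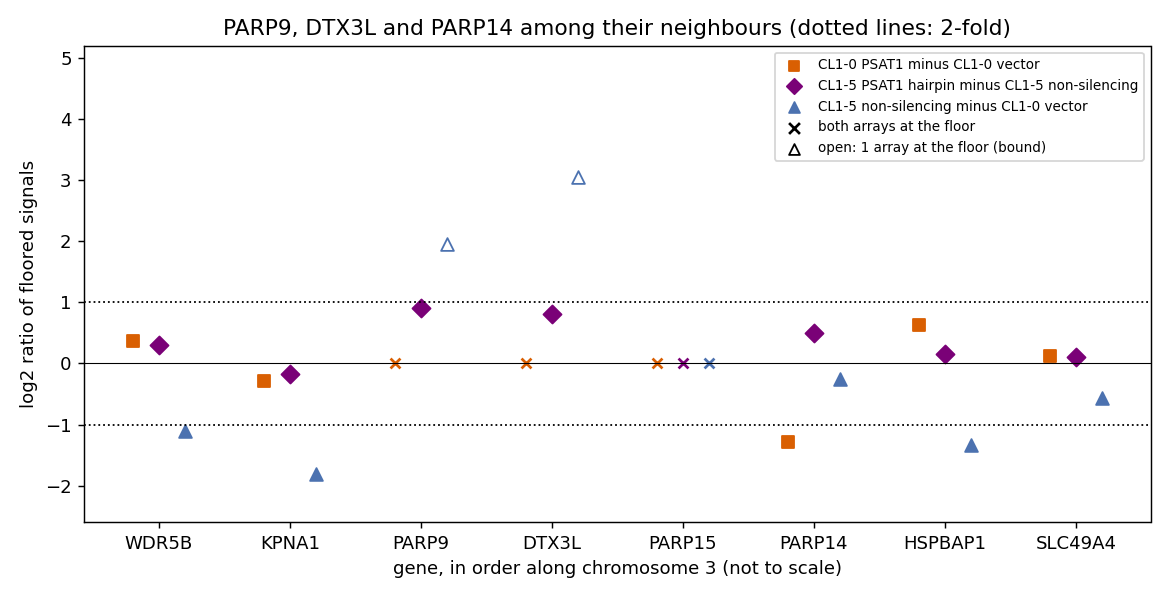
Log2 ratios (vertical axis) of the genes around PARP9, DTX3L and PARP14 in their order on chromosome 3, not to scale, for the 3 comparisons. Between the lines (triangles) PARP9 and DTX3L lie at or above 1.96 and 3.05 as bounds, while WDR5B, KPNA1, HSPBAP1 and SLC49A4 lie below 0, SLC49A4 only without scaling. Of all genes measured between the lines, 23.2% lie above 0.

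The genes whose profile over the 4 arrays was nearest to each member were found by the root mean square difference of floored log2 signals, each gene centred on its own mean. For PARP12 they were ACOT4 (0.09), IRF9 (0.09) and NUDT16L2P (0.10). For DTX3L they were FERMT1 (0.09), BEX5 (0.10) and NMI (0.10), the last a protein that is itself induced by interferon. NMI read 25.5 and 23.2 in CL1-0 and 341 and 649 in CL1-5. For PARP9 they were LINC01806 (0.06), ACOT4 (0.12) and PSG9 (0.15), for PARP14 HTATIP2 (0.09), VDR (0.11) and JPH1 (0.13), and for PARP10 RNF212 (0.07), RBMS2 (0.11) and DSP (0.13). Among the members PARP9 and PARP12 were the closest pair (0.20) and PARP14 and DTX3L the farthest (1.48). With 4 arrays and values set to a floor in CL1-0, many genes share such a profile.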

How the data were processed

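Total RNA of 4 cell cultures (6 ug each) was labelled and hybridized to Affymetrix arrays, per the labels' protocols. The deposited unit is intensity per probe set on a linear scale, which the authors made with MAS5, per the submitters' processing notes. Its version and scaling target are not given in the sources used here. From these values, signals under the floor (49.0, the 50th percentile over 54613 non-control probe sets on 4 arrays) were set to it and log2 transformed. Probe sets with 1 annotated gene (41097 of 54675; 1801 had several genes and 11777 had none listed) were named, with symbols updated through RefSeq for 41043. A gene was read from its probe set of highest mean. Ratios of 2-fold or more were called. A gene with 1 array at the floor has a bound, written "at least". With 1 array per group no test applies, and their number limits the precision. Calls were tested on simulated data. That check was of the code, with planted changes in genes well above the floor, and does not measure error in the real calls.

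The members, the gene lists and the tests were chosen with earlier results of these data known. The named genes were the members' probe sets, PSAT1, up to 6 genes of largest ratio per list and comparison, 2 neighbouring protein-coding genes on each side, and the 3 nearest profiles per member among genes reaching the 75th percentile (212.6). Some other list genes were named after their values were seen. Promoters were first searched with GAAANNGAA plus a final A; the shorter form printed here was chosen after those matches were seen, and more promoters hold it. Alternatives were 2 scalings, 3 floors (25th and 65th percentile, none), the mean over probe sets, probe sets without _x_at and _s_at, and calls at 1.5-fold and 3-fold. Python 3.11.15, numpy 2.4.6 and pandas 2.3.3 were used.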

Additional observations from a re-analysis of the deposited data

Results flagged for a closer look

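PARP14 and PARP10 had log2 ratios of opposite sign on the construct and control arrays of the 2 lines. PARP14 had -1.29 in CL1-0 with PSAT1 and 0.50 in CL1-5 with the hairpin, and PARP10 had -0.42 and 0.47. The PARP10 signs depend on the probe set, since 226401_at, above the floor on all 4 arrays, had -0.34 and -0.16. The constructs differ between the lines, each group has 1 array, and the difference was not tested. Opposite signs of this kind were seen in 30.9% of the genes measured in both lines.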

How the results depend on the processing

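No direction of a member past 2-fold was reversed by an alternative. The count of members lower in CL1-0 with PSAT1 went from 1 to 0 at 3-fold, under a floor set at the 65th percentile and with averaged probe sets. That average shrinks the PARP14 ratio by construction, since its second probe set is set to the floor on every array. The count higher in CL1-5 with the hairpin went from 0 to 1 with quantile normalization and to 2 at 1.5-fold, while that over all genes went from 51 to 69 and 214. The count higher in CL1-5 than CL1-0 controls went from 3 to 1 with the 65th percentile floor and to 4 with either scaling. Over the other gene lists, the rises in CL1-0 went from 2 to 1 with quantile normalization, with averaged probe sets, with the floor at the 25th percentile and without a floor. Between the lines, 5 higher and 20 lower became 10 and 13 with quantile normalization and 11 and 12 with median centring, and the higher count became 8 with the 25th percentile floor and with no floor. Over all genes the share of rises among calls went from 71.7% to 62.6% in CL1-0 with quantile normalization, and between the lines from 17.5% to 51.6% with it and 54.6% with centring. PARP12 had no value without its _s_at probe set. No paired analysis was possible because each group has 1 array and no replicate number. Signals below the floor in CL1-0 leave PARP9, PARP12 and DTX3L without a ratio there and with bounds between the lines.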

Other observations

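PARP9, PARP12 and DTX3L were not the only interferon genes below the floor in CL1-0 and above it on a CL1-5 array. Of the 28 effectors, 9 were below the floor on both CL1-0 arrays, and 6 of these were measured in CL1-5. There 5 rose with the hairpin, beside 0.398% of all genes measured in that pair. MX2 passed the floor only on the hairpin array (101 against 47.3 with control), so its rise is a bound. OAS2 and SAMD9 read 50.5 and 52.0 with control in CL1-5, near the floor. Among the 6, MX1 read 21.3 with vector in CL1-0 and 325 with control in CL1-5. IFI27, a small interferon-induced membrane protein, was 15.2-fold higher with the hairpin. SAMD9 was the exception among the 6, at 1.29-fold. Genes of this kind made up 6 of 25 effectors measured in CL1-5, 3 of the 5 members, and 880 of all 12821 genes measured there (6.86%). This grouping was made after the values were seen, and it was not tested.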
